A study of Mus musculus with 18 samples.

Results

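The intermediate filament genes of muscle measured here were Krt8, Krt18, Des, Vim, Nes, Synm, Sync and Plec, 8 of the 23420 genes in the RNA-seq table. They were chosen by name as the simple keratins, the muscle filament proteins and their linkers, and because Krt18 had one of the largest rises at 28 against 20 months in these same libraries. For that reason the values of Krt18, and those of all 8 genes at 28 against 20 months, are given below as a description with no test. The libraries came from hindlimb skeletal muscle of female C57BL/6J mice aged 2 months (young), 20 months (aged) and 28 months (superaged), with 3 mice per age and 1 library per mouse. No mouse carried a transgene or received a treatment by the labels, and the hindlimb muscles were taken without naming single muscles, so a library mixes fibre types and the cells between fibres. Methylated DNA of the same muscles, and of spleen T cells, was enriched by MBD capture, in which a protein domain that binds methylated CpGs retains fragments for sequencing (MBD-seq), and here the DNA of the 3 mice of an age was combined in 1 pool.

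Intermediate filaments are rope-like polymers that give a cell mechanical strength. In a mature fibre, desmin forms the main network, which rings each Z-disc, ties neighbouring myofibrils together and links them to the nuclei, mitochondria and the membrane at costameres. Synemin and nestin cannot build filaments alone and join those of desmin or vimentin, syncoilin binds desmin and the dystrophin-associated complex, and plectin is a giant linker that fastens filaments to Z-discs, membranes and organelles. Vimentin belongs to fibroblasts, endothelial cells, leukocytes and immature muscle cells. Keratin 8 (type II) and keratin 18 (type I) pair in equal amounts to build the filaments of simple epithelia such as liver and gut, and are also known from the costameres of striated muscle. Desmin, nestin and syncoilin are made in larger amounts after nerve injury or during regeneration.

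Each library held between 20203833 and 71115244 reads on genes. Values are normalized counts, which the authors made by dividing reads per gene by 1 size factor per library. Features of whole libraries bear on the values below. The libraries numbered 3 stood apart at all ages, with 8.81% to 10.4% of gene reads on the ribosomal RNA gene Rn45s against 24.0% to 30.4% in the other 6. Replicate 2 at 28 months held epidermal transcripts, with 407 normalized counts of Krt14, 685 of Krt5 and 1714 of Krt10, whereas Krt14 was at 0 and Krt10 between 44.8 and 88.1 in the other 8 libraries. The skeletal muscle label was borne out by its markers, as 12 genes of muscle fibres (Ckm, Acta1 and others) summed to between 5996130 and 7541250 normalized counts in every library. The slow myosin gene Myh7 ranged from 2773 to 44700 at 2 months, from 62731 to 109827 at 20 months and from 80566 to 112463 at 28 months.

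Krt18 was close to silent in young muscle and higher at each later age, and its partner Krt8 had its highest values at 28 months. Krt18 had 4.46, 21.1 and 7.94 normalized counts at 2 months, 82.2, 167 and 79.5 at 20 months, and 700.2, 405 and 830.4 at 28 months. Every 20-m library exceeded every 2-m library and every 28-m library exceeded every 20-m library. The means were 11.2, 110 and 645, and the log2 fold change was 3.34 ± 0.47 (SE) at 20 against 2 months, 5.91 ± 0.47 at 28 against 2 months and 2.57 ± 0.47 at 28 against 20 months. These values rested on 2 to 12 reads per library at 2 months, 44 to 146 at 20 months and 293 to 440 at 28 months.

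Krt8 had lower counts, with means in the same order. It had 0, 12.3 and 8.66 normalized counts at 2 months, 11.2, 48.9 and 28.9 at 20 months, and 192, 62.1 and 84.9 at 28 months. The 0 of replicate 1 at 2 months allows up to 6.69 normalized counts (3 reads, counting error only). The 2-m and 20-m libraries overlapped, since replicate 1 at 20 months lay below replicate 2 at 2 months, but all 3 libraries at 28 months were above all 6 younger ones. Krt8 averaged 7.0 at 2 months, below the mean of 10 required for testing, and entered the test only through its older libraries, so its call at 28 against 2 months (limma with Benjamini-Hochberg adjustment over 13178 genes, adjusted p = 0.0064) is no evidence of a difference by itself. In a limma fit with no filter on the mean, the adjusted p was 0.0093. The log2 difference was 4.33 ± 0.87 (SE) at 28 against 2 months, and it was 3.16 without replicate 1 at 2 months, 3.87 without replicate 1 at 28 months, 5.03 without replicate 2 at 2 months and 3.32 with a pseudocount of 5. Against 20 months it was 1.95 ± 0.87, and at 20 against 2 months 2.38 ± 0.87 (limma adjusted p = 0.081). DESeq2 on the recovered reads called the latter (adjusted p = 0.017), as did limma without replicate 2 at 2 months (3.08, adjusted p = 0.032), whereas without replicate 1 at 2 months, the library at 0, the difference was 1.21 (adjusted p = 0.23), without replicate 2 at 20 months 1.92 (adjusted p = 0.25) and with a pseudocount of 5 it was 1.55 (adjusted p = 0.085).

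**Figure D1:**
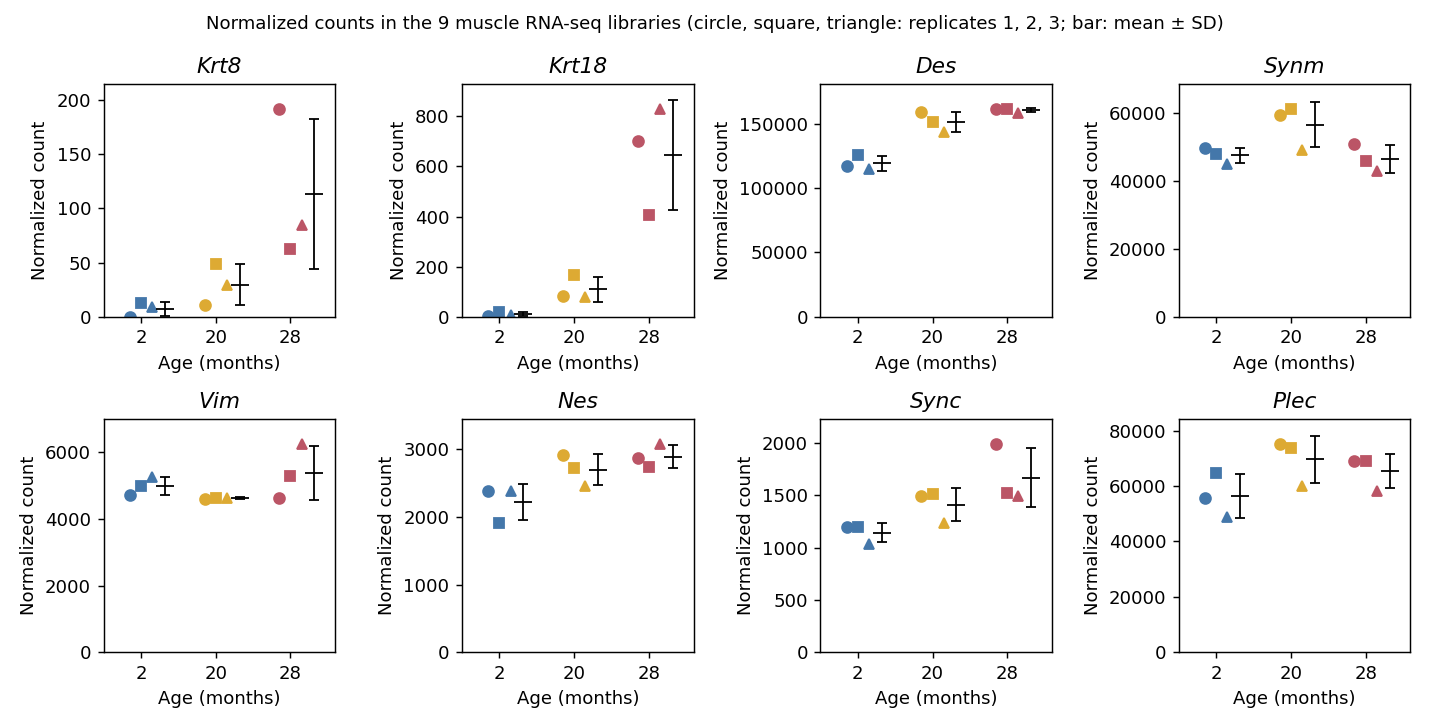
Normalized counts (linear axes from 0) of the 8 genes in the 9 muscle libraries by age in months. Circles, squares and triangles are replicates 1, 2 and 3, and bars are the mean ± SD of 3 libraries. Krt18 separates all 3 ages, Des separates 2 months from both older ages, and the triangle is the lowest point at every age for Des, Synm, Sync and Plec and the highest for Vim.

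Within a library, Krt18 exceeded Krt8 per kb of transcript by 1.18 and 2.21 times in replicates 3 and 2 at 2 months (Krt8 was at 0 in replicate 1), by 3.55 to 9.45 times at 20 months and by 4.71 to 12.6 times at 28 months. The 2-m ratios rest on 7 to 12 reads of each gene. Set against the main muscle filament gene, Krt18 made up 0.00834% to 0.0369% of the Des level per kb at 2 months, 0.113% to 0.241% at 20 months and 0.549% to 1.15% at 28 months. Over the 9 libraries, which share 3 ages, the Pearson r between Krt8 and Krt18 was 0.917 on the log2 scale.

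Replicate 2 at 28 months, the library with epidermal transcripts, had the lowest Krt8 (62.1) and the lowest Krt18 (405) of its age. Of the 10 keratinocyte markers, Krt14 and Krt1 were at 0 in the other 8 libraries, and the list without Trp63 summed to 4033 in that library against 75.9 to 164 in the rest. Trp63, which passed the test on its own (log2 1.67 ± 0.11 at 28 against 2 months, limma adjusted p = 2.5e-06), ranged from 261 to 295 at 2 months, 603 to 717 at 20 months and 826 to 903 at 28 months. Without the library, the log2 differences of Krt8 and Krt18 at 28 against 2 months were 4.67 and 6.22, beside 4.33 and 5.91 with it, and the part of epidermal RNA in the other libraries was not tested.

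Markers of simple epithelium and mesothelium, the usual sites of this keratin pair, were mostly too low to test. Of 12 such genes 3 were high enough to test, none was higher by limma in either contrast (also none at an unadjusted p under 0.05) and Ovol1, a transcriptional repressor of epithelia, fell at 28 against 2 months (log2 -0.50 ± 0.14, limma adjusted p = 0.033). The list summed to between 477 and 578 normalized counts at 2 months, 473 and 523 at 20 months and 307 and 537 at 28 months, most of it Ovol1. The other 11 genes summed to 37.9 to 79.3 at 2 months, 40.5 to 79.5 at 20 months, and 38.0, 177 and 77.4 in replicates 1, 2 and 3 at 28 months. Epcam, the adhesion molecule of simple epithelia, was at 0 in replicate 1 and 3.77 in replicate 3 at 28 months, the libraries with the most Krt8 and Krt18, and at 33.1 in replicate 2. At 2 months Epcam was at 14.1 in replicate 2 and at 0 in replicates 1 and 3. Of the mesothelial markers, Wt1 was at 0 in 8 of the 9 libraries, while Msln ranged from 4.46 to 23.8 at 2 months and from 3.37 to 11.2 at 20 months and was 1.90, 0 and 18.9 in replicates 1, 2 and 3 at 28 months, the last being the library with the most Krt18. Krt19 and Krt7, which join this pair in ductal epithelia, averaged 10.1 and 5.33 at 28 months against 36.1 and 4.35 at 2 months. The 2-m means were uneven, with 6.69, 70.5 and 31.0 for Krt19 and 0, 12.3 and 0.722 for Krt7 in replicates 1, 2 and 3. The part of any epithelial cells in the keratin values was not tested.

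**Figure D2:**
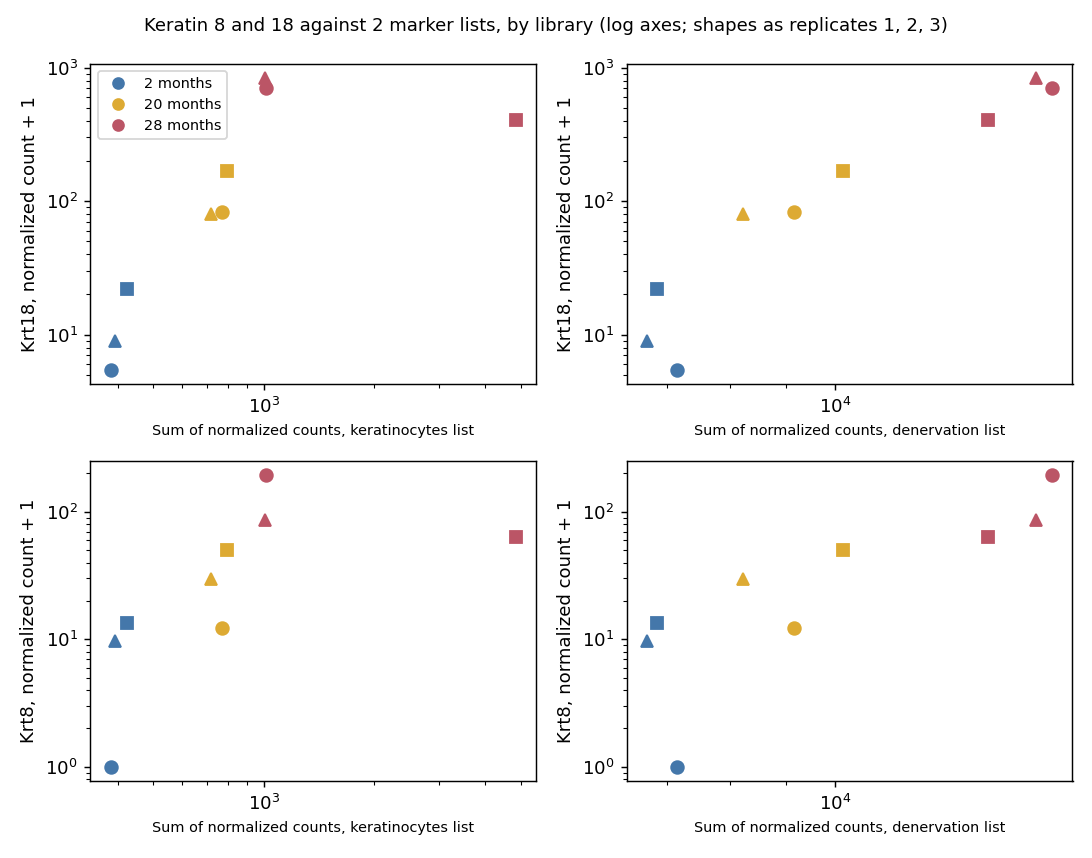
Krt18 (top) and Krt8 (bottom), as normalized count + 1, against the summed normalized counts of the keratinocyte list (left) and the denervation and neuromuscular junction list (right), with all axes logarithmic and 1 point per library. The 28-m library far to the right on the keratinocyte axis, at 4859, is the lowest of its age for both keratins, and the 3 ages are ordered along the denervation axis from 6713 at the lowest 2-m library to 15824 at the highest 28-m library.

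Krt8 and Krt18 adjoin each other on chromosome 15 and point away from each other (GRCm38, RefSeq annotation). Krt8 lies on the minus strand at chr15:101996711-102004342 and Krt18 on the plus strand at chr15:102028216-102032026, with 23874 bases between their starts. The genes on either side differed from the pair. Krt78, which starts 87 bases from the end of Krt8 on the same strand, averaged 0 at 2 and 20 months and 1.84 at 28 months, and Eif4b, a translation initiation factor that follows Krt18, had 13654, 17849 and 14681 normalized counts at 2, 20 and 28 months (28 against 2 months log2 0.10 ± 0.09, limma adjusted p = 0.51). The 250 bases before each start are shown because the MBD-seq signal below was measured around them. They are given 5′ to 3′ along the gene's strand from RefSeq (GRCm38.p6), with capitals marking CpG, the site of methylation that the capture reads.
Krt8, chr15:102004343-102004592, minus strand: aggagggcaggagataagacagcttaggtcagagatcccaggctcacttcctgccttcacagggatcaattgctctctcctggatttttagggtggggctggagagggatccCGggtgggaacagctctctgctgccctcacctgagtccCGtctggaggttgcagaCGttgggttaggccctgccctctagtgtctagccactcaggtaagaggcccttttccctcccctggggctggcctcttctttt
Krt18, chr15:102027966-102028215, plus strand: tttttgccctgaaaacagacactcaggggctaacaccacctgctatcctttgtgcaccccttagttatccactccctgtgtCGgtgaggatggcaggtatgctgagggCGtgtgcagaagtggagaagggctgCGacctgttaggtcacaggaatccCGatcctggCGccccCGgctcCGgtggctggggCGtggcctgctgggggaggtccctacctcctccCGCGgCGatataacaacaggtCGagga
The Krt8 window held 3 CpGs and the Krt18 window 12, against a median of 6 over 27025 such windows. Both held CACCTG, an E-box spelling searched on both strands, which occurred in 17.1% of all windows.

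Desmin was by far the most abundant filament transcript and was higher in older muscle. Des had 117024, 125462 and 114907 normalized counts at 2 months, 158799, 151546 and 143246 at 20 months, and 161719, 161483 and 158488 at 28 months. Each older library exceeded each 2-m library, and the 20-m and 28-m libraries overlapped. Des rose at 20 against 2 months by 0.34 ± 0.10 (log2, SE; limma adjusted p = 0.041), a change of 26.9%, and at 28 against 2 months by 0.43 ± 0.10 (adjusted p = 0.016), a change of 34.9%. Within the libraries numbered 1 and 2 the estimates were 0.36 (adjusted p = 0.11) and 0.42 (adjusted p = 0.097). The call at 20 against 2 months was also lost with no filter (adjusted p = 0.17), after rescaling to the same sum (0.48), with only the 2 ages (0.06), after quantile normalization, where the change was 0.16 (0.21), and in limma without replicate 1 or 3 at 2 months, 1 or 2 at 20 months, or 1 or 3 at 28 months (0.057 to 0.16). Leaving out replicate 1 or 3 at 2 months, or 1 or 3 at 28 months, moved the adjusted p of the later contrast to between 0.052 and 0.060, and that call was lost as well with no filter (0.091) and after rescaling to the same sum (0.32). Speg, a muscle kinase gene that starts 6718 bases beyond Des on the same strand, had a log2 difference of 0.12 ± 0.07 at 28 against 2 months (limma adjusted p = 0.28). The Des window before the start is shown for the same reason as above.
Des, chr1:75360042-75360291, plus strand: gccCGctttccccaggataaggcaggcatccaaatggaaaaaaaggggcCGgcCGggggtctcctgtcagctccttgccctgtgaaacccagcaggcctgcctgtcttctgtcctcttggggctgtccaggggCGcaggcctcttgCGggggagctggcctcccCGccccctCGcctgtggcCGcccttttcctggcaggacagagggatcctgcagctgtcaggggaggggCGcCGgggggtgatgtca
It held 10 CpGs and was the one member window with CAGCTG, another E-box spelling, found in 12.8% of all windows.

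Syncoilin, the partner that ties desmin to the dystrophin complex, rose at 28 against 2 months. Sync had 1199, 1198 and 1035 normalized counts at 2 months, 1493, 1508 and 1231 at 20 months, and 1991, 1526 and 1491 at 28 months. Both older ages lay above 2 months in all libraries, and replicate 1 at 28 months stood above the other 2 of its age. The change was 0.54 ± 0.12 at 28 against 2 months (log2; limma adjusted p = 0.013) and the difference 0.30 ± 0.12 at 20 against 2 months (adjusted p = 0.12, or 0.039 with a term for the libraries numbered 3, which held the lowest value of each age). Without replicate 1 at 28 months the first became 0.40 (adjusted p = 0.059), and after rescaling to the same sum its adjusted p was 0.10. Sync overlaps the 3′ part of Rbbp4, a histone-binding gene on the opposite strand that itself rose at 28 against 2 months (log2 0.26 ± 0.07, limma adjusted p = 0.026), and the library kit as described does not mark strand, so reads from the shared stretch cannot be told apart.

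Nestin, a filament protein of regenerating fibres and of the region under the neuromuscular junction, was also higher. Nes had 2378, 1912 and 2375 normalized counts at 2 months, 2910, 2727 and 2453 at 20 months, and 2864, 2732 and 3074 at 28 months. No library of either older age overlapped with 2 months. It rose by 0.38 ± 0.10 at 28 against 2 months (log2; limma adjusted p = 0.024), and the difference at 20 against 2 months was 0.28 ± 0.10 (adjusted p = 0.074). The earlier difference was 0.18 in limma without replicate 2 at 2 months (adjusted p = 0.24), and with the replicate number as a block its adjusted p was 0.04. The later call was lost without replicate 2 at 2 months, the lowest library, where the change was 0.28 (adjusted p = 0.073), without replicate 1 or 3 at 28 months, after rescaling to the same sum (adjusted p = 0.36) and within the libraries numbered 1 and 2 (adjusted p = 0.086).

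Synemin had its highest values in aged rather than superaged muscle. Synm had 49666, 48161 and 45228 normalized counts at 2 months, 59616, 61429 and 49088 at 20 months, and 50966, 45848 and 43007 at 28 months. Replicates 1 and 2 at 20 months were above all other libraries, whereas replicate 3 lay within the range of 2 months. The difference was 0.24 ± 0.11 at 20 against 2 months (log2; limma adjusted p = 0.14) and -0.04 ± 0.11 at 28 against 2 months (adjusted p = 0.86), the latter changing sign when libraries were rescaled to the same sum. With a term for the libraries numbered 3, the lowest of each age, the first had an adjusted p of 0.04 in limma, within the libraries numbered 1 and 2 it was 0.31 (adjusted p = 0.099), and after quantile normalization 0.11 (adjusted p = 0.48). At 28 against 20 months the log2 difference was -0.28 ± 0.11. Relative to Des per kb, Synm was 15.0% to 16.5% at 2 months, 13.4% to 15.8% at 20 months and 10.6% to 12.3% at 28 months, so each superaged library was below all 6 younger ones.

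Plectin also had its highest mean at 20 months, followed by 28 and then 2 months. Plec had 55749, 64722 and 48935 normalized counts at 2 months, 75169, 73803 and 59979 at 20 months, and 69176, 68902 and 58200 at 28 months. Replicate 3 was the lowest of each age, and the ages overlapped through it. The difference was 0.30 ± 0.13 at 20 against 2 months (log2; limma adjusted p = 0.12) and 0.22 ± 0.13 at 28 against 2 months (adjusted p = 0.29). With a term for the libraries numbered 3, the first had an adjusted p of 0.018, and within the libraries numbered 1 and 2 it was 0.31 (adjusted p = 0.12). It was 0.41 in limma without replicate 2 at 2 months (adjusted p = 0.048) and 0.16 after quantile normalization (adjusted p = 0.36). Without replicate 3 at 2 months the difference at 28 against 2 months was 0.12.

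Vimentin stood apart from the muscle members. Vim had 4723, 5003 and 5256 normalized counts at 2 months, 4601, 4635 and 4646 at 20 months, and 4626, 5285 and 6255 at 28 months. All 20-m libraries were below all 2-m libraries, the 28-m libraries spanned both, and replicate 3 at 28 months was the highest. The difference was -0.11 ± 0.10 at 20 against 2 months (log2; limma adjusted p = 0.48) and 0.10 ± 0.10 at 28 against 2 months (adjusted p = 0.55), and the latter was -0.01 without that replicate. Relative to Des per kb, Vim was 6.66% to 7.64% at 2 months, 4.84% to 5.42% at 20 months and 4.78% to 6.6% at 28 months. Markers of fibroblasts, which carry vimentin, also differed between the ages. The 10 fibroblast markers summed to between 86136 and 156491 normalized counts at 2 months, 48956 and 55756 at 20 months and 51310 and 67291 at 28 months, and 6 fell at 20 against 2 months (7.13% of all genes) and 4 at 28 against 2 months (6.24%), led by Col1a1 (log2 -3.34 ± 0.30 at 28 against 2 months, limma adjusted p = 2.2e-05) and Col1a2 (-3.08 ± 0.29, adjusted p = 3.9e-05). In whole muscle, fewer cells of a type and less RNA per cell cannot be told apart, and the part of these markers in the Vim values was not tested.

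**Figure D3:**
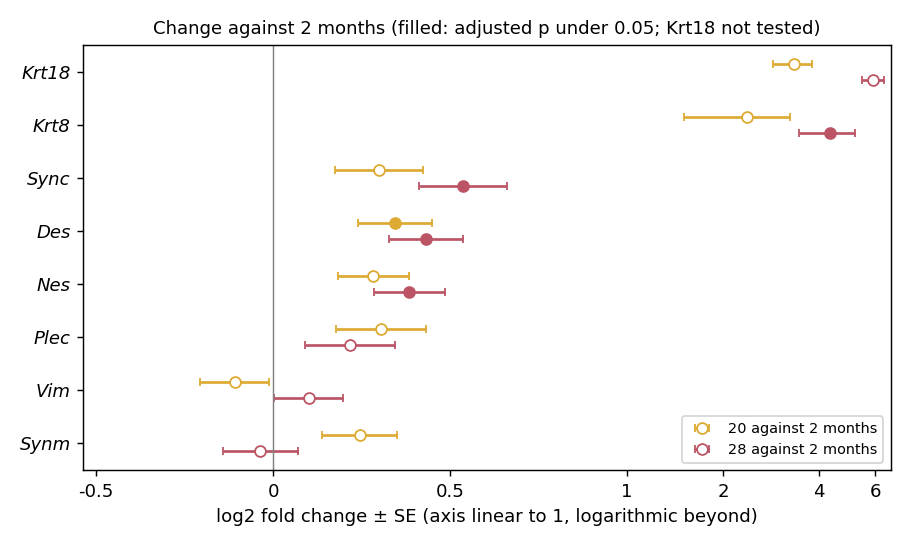
Log2 fold change (older minus 2 months) ± SE of the 8 genes at 20 months (yellow) and 28 months (red), on an axis linear to 1 and logarithmic beyond. Filled points passed an adjusted p of 0.05 in limma and Krt18 was not tested. The 2 keratins lie between 2.38 and 5.91, and the other 6 genes between -0.11 and 0.54.

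Counted together, 1 of the 7 tested members (Des) rose at 20 against 2 months, where 9.42% of the 13178 tested genes rose, and 3 (Des, Nes and Sync) rose at 28 against 2 months, where 7.53% did. Krt8 was called as well, which would make 4, but it could be tested only because of its older libraries and is left out of this count. With a mean of at least 50 required, which leaves Krt8 out of the fit, the count was again 3. None fell in limma, against 7.13% and 6.24% of all genes, and none was lower at an unadjusted p under 0.05. At that unadjusted limit 6 of the 7, Krt8 among them, were higher at 20 against 2 months and 4 at 28 against 2 months, where 16.8% and 14.6% of all genes were higher (31.5% and 28.2% in either direction), and both comparisons used the same 2-m libraries. With Krt8 included, the counts of calls were 1 and 4 by edgeR on recovered reads and 2 and 4 by DESeq2. As a description that includes Krt18, the median log2 difference over all 8 members was 0.30 and 0.41, beside -0.02 and -0.01 over all genes tested. Leaving out Krt18, the libraries of 4 of the 7 genes did not overlap at 20 against 2 months (background 36%) and of 4 at 28 against 2 months (background 30.3%), with Krt8 among the latter. At 28 against 20 months, where 0.212% of all genes rose and 17.5% did not overlap, the members that did not overlap were Krt18, which was chosen for it, and Krt8, and nothing is read from this count. The differences of the other 6 lay between -0.28 and 0.24. Without replicate 2 at 28 months the counts of calls, Krt8 included, were 1 and 4.

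**Figure D4:**
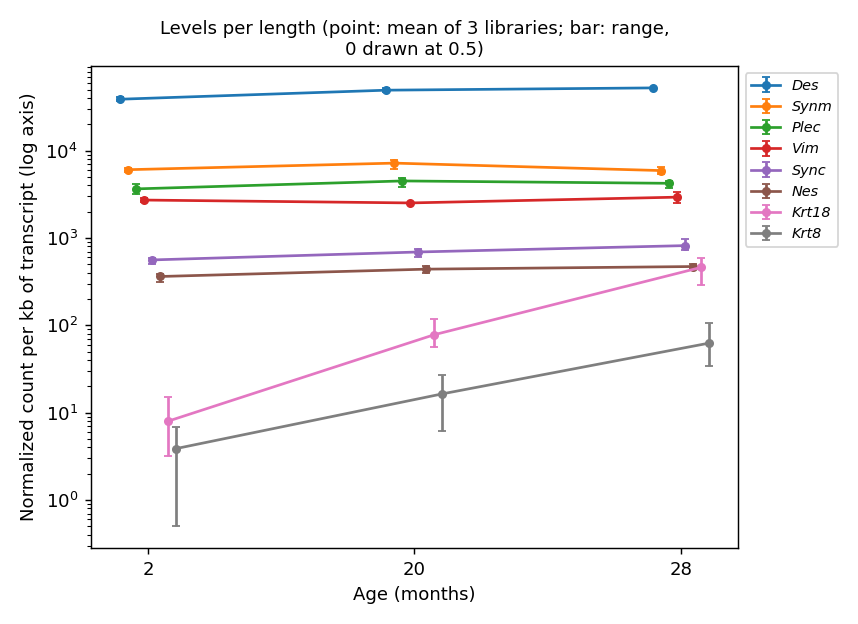
Normalized count per kb of the longest RefSeq transcript (log axis) by age in months, with the mean of 3 libraries as points and their range as bars (0 drawn at 0.5). Krt18 climbs from 7.99 to 461 and meets Nes at 28 months, while the order of the other 6 genes stays as it was at 2 months.

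Compared per length, Des led at every age, with means of 38868, 49330 and 52386 normalized counts per kb at 2, 20 and 28 months. Synm (6062, 7210 and 5925), Plec (3654, 4507 and 4233) and Vim (2723, 2523 and 2938) followed, then Sync (561, 692 and 819) and Nes (363, 440 and 472). Krt18 reached 7.99, 78.3 and 461 and Krt8 3.88, 16.4 and 62.6. Neighbours in this order had separate ranges except for Krt18 and Krt8 at 2 months and for Nes and Krt18 at 28 months, where the range of Krt18 took in that of Nes. Levels per length assume even coverage of a transcript, which was not tested.

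The genes most like each member were taken as the 3 with the highest Pearson r over the 9 libraries on the log2 scale, among the 13178 tested genes, as a description. For Krt18 they were Rrad, a small GTPase of muscle (r = 0.986), with means of 108, 331 and 1478 normalized counts at 2, 20 and 28 months, Plekhh1 (r = 0.982) and Ninj1, a membrane protein of cell lysis (r = 0.982). For Krt8 they were the lipase Abhd6 (r = 0.967), the chemokine Cxcl10 (r = 0.960; 3.69, 35.3 and 124) and Tmem202 (r = 0.951). Des ran most closely with Myl12a, a myosin regulatory light chain (r = 0.993; 5946, 10976 and 13207), the kinase Mknk2 (r = 0.986) and Arhgap44 (r = 0.986). Sync was closest to the deacetylase Hdac4 (r = 0.969), also on the denervation list below, Aebp2 (r = 0.963) and Usp31 (r = 0.961), and Nes to Farp2 (r = 0.959), Arfgap3 (r = 0.955) and Tns3 (r = 0.944). Close to Synm were Arid1b (r = 0.977) and Csda (r = 0.973). The closest to Plec were Vamp2 (r = 0.988), Samd4 (r = 0.976) and Golga2 (r = 0.969), and to Vim Neu3 (r = 0.953), Chst15 (r = 0.928) and Qtrt1 (r = 0.920). These values mix the difference between ages with that between libraries of 1 age.

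Genes that work with these filaments were followed as lists, whose counts stand beside the 9.42% of all tested genes that rose and 7.13% that fell at 20 against 2 months, and the 7.53% and 6.24% at 28 against 2 months. Of 12 chaperones and quality control factors of desmin, 6 rose and 1 fell at 20 against 2 months, and 7 rose at 28 against 2 months (5 without replicate 2 at 28 months), with a median log2 difference of 0.46 at the later age. Hspb7, a small heat shock protein of heart and muscle, had 10438, 19787 and 9589 normalized counts at 2 months and 35463 to 38102 at 28 months, a rise of 1.56 ± 0.20 (log2; limma adjusted p = 0.00033). Cryab, the αB-crystallin that binds desmin, rose by 1.02 ± 0.12 at 28 against 2 months (limma adjusted p = 0.00018), from 18431 to 24869 in young muscle to 39059 to 43911. The one that fell was Hspb3, by 0.40 on the log2 scale at 20 against 2 months (limma adjusted p = 0.013).

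Among 26 partners at the Z-disc and costamere, 11 rose and 1 fell at 20 against 2 months, and 9 rose and 2 fell at 28 against 2 months (8 and 1 without replicate 2 at 28 months). Csrp3, the muscle LIM protein of the Z-disc, rose by 1.30 ± 0.36 at 20 against 2 months (log2; limma adjusted p = 0.026) and Xirp1, an actin-binding repeat protein, by 1.23 ± 0.14 at 28 against 2 months (adjusted p = 0.00018). Csrp3 had 1103, 4270 and 1327 normalized counts at 2 months and 4803, 3869 and 5063 at 20 months. Its replicate 2 at 2 months thus lay within the 20-m range. Ank1, a membrane anchor, fell by 0.65 at 20 against 2 months (log2; limma adjusted p = 0.00068), and Actn3, the fast-fibre α-actinin, fell by 0.52 at 28 against 2 months (adjusted p = 0.043). Of 13 plakins, desmosomal proteins and keratin linkers high enough to test, 3 rose by limma in each of these contrasts (2 of 10 at 28 against 2 months without replicate 2 at 28 months) and none fell, also at an unadjusted p under 0.05. Pkp2, a desmosomal plaque protein, rose by 1.94 ± 0.20 at 28 against 2 months (log2; limma adjusted p = 8.6e-05) and Macf1, a plakin that crosslinks actin and microtubules, by 0.64 ± 0.17 (adjusted p = 0.028).

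Of 23 other intermediate filament genes listed, 13 could be tested, with 1 rise and 1 fall at 20 against 2 months and 2 rises and 1 fall at 28 against 2 months. Without replicate 2 at 28 months the 6 keratins Krt5, Krt14, Krt15, Krt1, Krt17 and Krt79 were too low to test, and the 7 genes left had 2 rises and 1 fall at 28 against 2 months. The median log2 difference of the list in that contrast was 1.27 with the library and -0.40 without it. Krt80, a keratin of maturing epithelia, rose by 1.92 ± 0.34 at 28 against 2 months (log2; limma adjusted p = 0.0027), from a mean of 40.8 to 147. Lmna, the nuclear A-type lamin, rose by 0.34 ± 0.07 (adjusted p = 0.0056), and Lmnb1, a B-type lamin, fell by 0.64 on the log2 scale (adjusted p = 0.013).

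Markers of denervated fibres and the neuromuscular junction showed the largest share of rises among these lists. Of 14 genes, 8 rose and 1 fell at 20 against 2 months and 11 rose and 1 fell at 28 against 2 months (10 and 1 without replicate 2 at 28 months), with medians of 0.63 and 1.18. Sln, sarcolipin, which slows the calcium pump, had 29.0, 109 and 31.0 normalized counts at 2 months, 702, 565 and 548 at 20 months, and 1871, 1851 and 2414 at 28 months (28 against 2 months log2 5.42 ± 0.37, limma adjusted p = 3.2e-06). Ache, the acetylcholinesterase of the synapse, fell by 0.71 at 20 against 2 months (limma adjusted p = 0.001). Of 11 genes of satellite cells and regenerating fibres tested, 1 rose and 2 fell at 20 against 2 months and 2 rose and 4 fell at 28 against 2 months (1 and 4 without replicate 2 at 28 months). The rises were in Myh3, the embryonic myosin (log2 2.51 ± 0.13 at 28 against 2 months, limma adjusted p = 8.5e-07), and Myog, a regulator of muscle differentiation (1.01 ± 0.24, adjusted p = 0.016), and the largest falls were in Megf10 (by 1.24, adjusted p = 0.013) and Chodl (by 1.14, adjusted p = 0.0084). Whether the filament genes moved because of any of these changes was not tested.

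The remaining lists covered other cell types and the fibres themselves. At 28 against 2 months, where 7.53% of all genes rose, the endothelial list had 1 rise in 10 (Vwf, log2 0.33 ± 0.09, limma adjusted p = 0.027), the Schwann cell list 1 rise in 9 (Cdh19, 1.20 ± 0.32, adjusted p = 0.027), and the lists of smooth muscle and of macrophages none, also at an unadjusted p under 0.05. At 20 against 2 months 1 of 10 smooth muscle genes fell (Pdgfrb, by 0.33, limma adjusted p = 0.042), as did 3 of 10 macrophage genes (C1qb by 0.61, adjusted p = 0.017) and 2 of 9 Schwann cell genes (Pmp22 by 0.61, adjusted p = 0.02), where 7.13% of all genes fell. At an unadjusted p under 0.05, 4 of 10 were lower in each of the smooth muscle and macrophage lists in that contrast, against 14.8% of all genes. Replicate 1 at 2 months held more transcripts of bone marrow and blood (14218 normalized counts over the list, against 1759 to 3903 elsewhere) and of cartilage and bone (5251, against 524 to 2335). Of 9 cartilage and bone genes tested 2 were called lower at 20 against 2 months and 3 at 28 against 2 months (2 without replicate 2 at 28 months), among them the collagen Col11a1 (log2 -2.91 ± 0.34 at 28 against 2 months, limma adjusted p = 0.00018). Col2a1, the main cartilage collagen, had 825, 31.7 and 97.5 normalized counts at 2 months and 1.69 to 9.49 in the older libraries, and Mpo, the myeloperoxidase of marrow cells, had 314, 26.4 and 4.33 at 2 months and 0 in the other 6 libraries. Both were high enough to test only through the 2-m libraries, so their calls, the latter the one call of its list, are no evidence of a difference. Of 12 fibre markers 2 rose and 2 fell in each contrast, with Myh7 higher by 3.29 ± 0.68 (log2; limma adjusted p = 0.0072) and Pvalb, the calcium buffer of fast fibres, lower (-1.03 ± 0.14, adjusted p = 0.00056) at 28 against 2 months. Of the T-cell list 1 gene could be tested, and it did not pass in limma, adjusted or not.

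MBD-seq gave the methylated DNA around the starts of the 8 genes, as the mean normalized count per 500-bp bin within 1 kb of the start. With 1 pool per age, the ages could not be tested against each other, and the intervals cover counting error only. Summed over all bins, the 2-m and 28-m muscle columns held 135321218 and 141889499 reads. The study reports fewer sequenced reads per age group, so a fragment may have been counted more than once. The intervals take every count as independent, so they may be too narrow even for counting error. Around the Krt8 start, muscle had 37.8, 32.8 and 23.9 at 2, 20 and 28 months, on 166, 156 and 150 reads, with a ratio of 28 to 2 months of 0.633 (95% interval 0.504 to 0.794, exact binomial). That interval holds under the authors' scaling, and with a common sum for the libraries the ratio was 0.862 and its interval (0.686 to 1.08) took in 1. At 2 months this placed Krt8 at percentile 95.9 of 11912 gene starts. In T cells the same window went the other way, with 43.6, 54.5 and 115, and percentile 99.5 at 28 months. That was a log2 difference of 1.38 at 28 against 2 months, on 172 and 349 reads and with no interval made. Over all starts the median difference in T cells was 0.20, and the upper quartile of the signal went from 16.2 to 23.1. Around the Krt18 start, muscle had 22.5, 22.9 and 17.5 (ratio of 28 to 2 months 0.778, 0.588 to 1.03) and T cells 21.8, 26.8 and 33.0. Within 5 kb, the strongest muscle bin at each age lay 1534 bases inside the gene, at 115, 88.4 and 48.4. In T cells that bin had 110, 176 and 255, and at 2 months the bin 2534 bases inside the gene was slightly higher, at 111.

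Des and Plec were intermediate, and the other 4 genes had little signal at their starts in muscle. Des had 15.5, 9.68 and 12.6 in muscle and 21.8, 47.5 and 66.4 in T cells, and Plec 17.3, 16.4 and 13.5 in muscle and 15.2, 13.7 and 13.2 in T cells. Plec has 15 RefSeq transcripts, and its signal was taken at the outer end of the gene. That end need not be the start used in muscle. In muscle, Synm had 2.50, 1.89 and 5.74, Sync 2.27, 1.05 and 5.26, Nes 0.227, 0.421 and 1.43, and Vim 0, 0.561 and 6.37. The 2-m and 20-m values of Vim rested on 0 and 2 reads over 3 bins, and its 28-m value on 30 reads. Its window before the start is shown because no read lay around this start at 2 months.
Vim, chr2:13574061-13574310, plus strand: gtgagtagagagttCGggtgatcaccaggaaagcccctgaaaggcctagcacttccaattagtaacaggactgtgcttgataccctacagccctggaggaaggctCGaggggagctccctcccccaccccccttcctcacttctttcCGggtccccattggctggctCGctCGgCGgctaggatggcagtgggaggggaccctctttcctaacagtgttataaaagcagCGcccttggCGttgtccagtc
It held 8 CpGs and was the one member window with TATAAA, found in 13% of all windows. Nes held 15 CpGs and Synm 23 in their windows.

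Thus the 4 members with the highest signal at 2 months were lower at 28 months in muscle (log2 -0.64 for Krt8, -0.34 for Krt18, -0.33 for Plec and -0.28 for Des) and the 4 with the lowest were higher (0.93 to 2.88). Under the authors' scaling the counting intervals of the ratio took in 1 for Krt18, for Des (0.581 to 1.14), for Plec (0.568 to 1.08) and for Nes (0.874 to 276, on 1 and 9 reads). A common sum for all libraries in place of the authors' scaling turned the sign for Krt18, Plec and Des and left Krt8 at -0.21 with an interval that took in 1, and within 500 bp of the start the difference was 1.05 for Des and -1.50 for Synm. Over all 11912 starts the median difference was 0.40, 67.8% of starts were higher at 28 than at 2 months, and the Spearman correlation between the level at 2 months and the difference was -0.848. That correlation is across genes of the same libraries, and its 2 sides share the 2-m library. Across the 8 genes, the order of the signal in muscle was not that of the RNA, as Des had the highest RNA level and percentile 79.5 of the signal at 2 months, and Vim had little of the signal at 2 and 20 months.

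**Figure D5:**
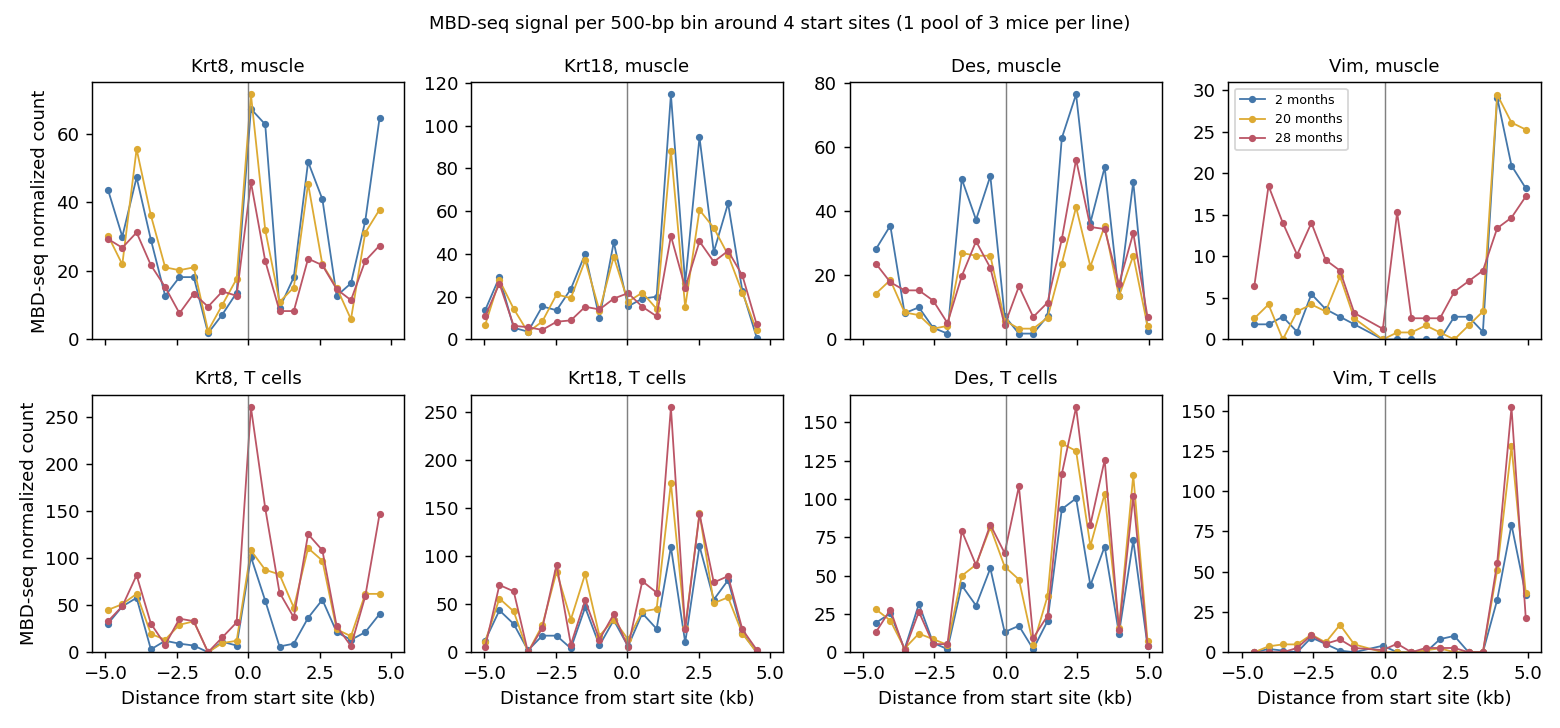
MBD-seq normalized count per 500-bp bin (linear axes from 0) against the distance in kb from the start of Krt8, Krt18, Des and Vim, in muscle (top) and T cells (bottom), with 1 line per age and 1 pool of 3 mice per line. At the Krt8 start the 28-m line is the lowest in muscle (45.9 in the bin at the start) and the highest in T cells (260.4), and the strongest Vim bins of T cells lie over 3 kb inside the gene.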

How the data were processed

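RNA-seq of poly-A RNA from hindlimb muscle of 9 mice and MBD-seq of muscle and spleen T cells were used. The deposited signal values are reads per RefSeq gene (RNA-seq) or per 500-bp bin (MBD-seq) that the authors divided by 1 DESeq2 size factor per library. Per the labels, reads were trimmed with Trim Galore and counted with HTSeq and bedtools on mm10. MBD-seq reads were aligned with Bowtie2, and for RNA-seq the submitters' notes name TopHat whereas the study's methods name Hisat2. All nonzero values were whole multiples of 1 step per library (100% within 0.01 read), so reads were recovered exactly. Rows naming no gene (37.9% to 47.7% of reads) were left out.

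All 9 libraries were fitted together in limma 3.58.1 (R 4.3.3, trend) with age as the single factor, on log2(normalized count + 1), over the 13178 genes with a mean of at least 10, all 8 members included. Changes are on this scale, which understates those of low genes. P-values were adjusted by Benjamini-Hochberg over these genes and called under 0.05. The script was tested on simulated counts. The mice were separate animals by the study's methods.

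Named genes were the members, the genes most like them, their neighbours and, from each list, up to 2 rises and 2 falls with the largest change among those called. Some genes that this rule takes in are not reported here. Members and lists were chosen with earlier results of these data known. Alternatives were pseudocounts of 0.1 and 5, quantile normalization, no filter or a higher one (mean 50), a common sum per library, a block for the replicate number, a term for libraries numbered 3 or their removal, only the 2 ages compared, edgeR 4.0.16 and DESeq2 1.42.0 on recovered reads, and leaving out each library. A common sum without Rn45s, and list counts without replicate 2 at 28 months, were added after seeing the data. Lengths are of the longest RefSeq transcript.

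MBD-seq values were means over bins centred within 1 kb of the RefSeq start. The muscle columns do not say which of the repeated captures they hold, so no repeat was compared. Intervals of ratios are exact binomial (scipy 1.17.1) and treat the counts of adjoining bins as independent. Promoter windows were read from RefSeq for 7 members, and that of Sync, which starts elsewhere than the start used for MBD-seq, was not used.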

Additional observations from a re-analysis of the deposited data

How the results depend on the processing

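At 20 against 2 months the count of members called (1, Krt8 included in all counts here) was 0 without a filter, after rescaling to the same sum, after quantile normalization, within the libraries numbered 1 and 2 and with only the 2 ages compared, 2 by DESeq2, and 4 with a term for the libraries numbered 3. Leaving out 1 library gave 0 to 3, with 0 without replicates 1 or 3 at 2 months, 1 or 2 at 20 months, or 1 or 3 at 28 months. At 28 against 2 months the count (4) was 1 after rescaling to the same sum and 2 within the libraries numbered 1 and 2, and leaving out 1 library gave 1 to 4, with 1 without replicate 1 and 2 without replicate 3 at 28 months. With the replicate number as a block the counts were 5 and 4. The numbers were not taken to pair the mice. Deviations from the age means had a Pearson r of 0.109 to 0.161 between libraries numbered 3 and -0.0401 to 0.0998 between the others. These ranges lie close together and cannot settle whether the numbers pair mice. The cause of these shifts was not tested.

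Over all genes, 2181, 1814 and 50 calls at 20 against 2, 28 against 2 and 28 against 20 months became 586, 554 and 24 after rescaling to the same sum, 1117, 716 and 11 within the libraries numbered 1 and 2, 2850, 2423 and 103 with the term for libraries numbered 3, 3000, 2529 and 138 with the block, 2200, 1775 and 51 by edgeR and 2560, 2125 and 228 by DESeq2. With only the 2 ages compared the last was 122. Leaving out 1 library gave 1081 to 2310, 963 to 1913 and 14 to 89. The direction turned for Vim (-0.013 without replicate 3 at 28 months, -0.013 to 0.205 over the libraries left out) and Synm at 28 against 2 months (0.0038 after rescaling to the same sum, 0.012 when Rn45s was left out as well, 0.021 without replicate 3 at 28 months, -0.10 to 0.021 over the libraries left out), and at 28 against 20 months for Nes (-0.0104 within the libraries numbered 1 and 2) and Plec (0.000487 after quantile normalization). Every other member difference kept its sign in the alternatives run.

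The MBD-seq difference at 28 against 2 months in muscle turned sign after rescaling for Krt18 (0.081), Des (0.142) and Plec (0.0895), within 500 bp for Des (1.05) and Synm (-1.50), and over the gene body for Synm (-0.17) and Sync (-0.19). Krt8 was lower in each. The low read counts of Krt8 and Krt18 at 2 months (0 to 12) limit their fold changes, and 1 pool per age limits the MBD-seq values.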
